A study of Mus musculus with 14 samples.

Results

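The tripartite motif (TRIM) genes encode a large family of proteins, most of them ubiquitin ligases, and 43 of them formed the group described here. They were chosen as all symbols that begin with Trim and a number and whose mean level over the 14 libraries was at least 0.5 CPM (counts scaled to a common library size). The deposited table listed 60 such symbols among 19360 gene symbols in all, and 17 of the 60 lay below the minimum. Each symbol was represented by the transcript with the most counts. The test fitted across genes covered 41 of the 43 members among 14565 genes. Trim14 and Trim72, whose mean levels of 0.513 and 0.512 CPM lay just inside the minimum, did not pass its count filter and have levels but no test. The nearest symbols outside it were Trim54 at 0.215 CPM and Trim29 at 0.184 CPM.

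The study sequenced anterior cortex RNA of 14 mice, one library for each. All were C57BL/6J mice of 15 months. The 3 groups carried 0, 1 or 2 copies of an allele of Vcp that the labels call DG: wild-type (WT, 4 mice), DG/+ (6 mice) and DG/DG (4 mice). Vcp encodes a hexameric ATPase that pulls ubiquitinated proteins out of membranes, complexes and aggregates and passes many of them to the proteasome. The sources used here do not state how the allele was made or how many founder lines were used. Counts per transcript hold no allele information, so the genotype labels were not checked against the sequence.

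Typical TRIM proteins carry a RING domain, which recruits the ubiquitin-loaded conjugating enzyme, followed by B-box domains and a coiled coil through which they assemble into dimers and larger arrays. The end of the protein differs between members and sets the substrate, and the family is divided into classes by it. In neurons, TRIM proteins are known for roles in axon growth, microtubule organisation and protein turnover at synapses. In immune cells and fibroblasts they are known as antiviral factors and as regulators of innate signalling, and several are induced by interferon.

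The libraries held between 8647976 and 15911398 counts over the transcripts kept. Marker transcripts of neurons summed to between 6743 and 8576 CPM in every library, as the tissue label calls for. Transcripts of neighbouring tissues differed between libraries. The 6 choroid plexus markers summed to 1308 CPM in WT replicate 3, 581 CPM in DG/+ replicate 1 and 607 CPM in DG/+ replicate 5, against 27.4 to 34.4 CPM in the DG/DG libraries. The 6 pituitary markers summed to 4202 CPM in DG/DG replicate 1 and to between 0.644 and 102 CPM in the other 13 libraries. The 5 striatal markers found in the table summed to 818 CPM in DG/+ replicate 4 and 708 CPM in DG/DG replicate 3, and to between 91.3 and 376 CPM elsewhere. The 6 cerebellar markers summed to 101 CPM in WT replicate 2 and 136 CPM in DG/+ replicate 2, and to between 14.8 and 28.99 CPM elsewhere. The 8 oligodendrocyte markers had medians of 2997 CPM in WT and 2238 CPM in DG/DG, and their ranges overlapped. Their part in the differences between genotypes was not tested.

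Levels were compared between members as CPM per kilobase of transcript, because a long transcript collects more reads than a short one at the same abundance. Trim37, a regulator of centrosome assembly that is mutated in a human growth disorder, had the highest mean level at 97.6 CPM per kb. Trim44, a member without a RING domain, followed at 74.1 CPM per kb. Trim2, which ubiquitinates neurofilament light chain in axons, had 67.8 CPM per kb, Trim9 64.0 CPM per kb and Trim32 63.3 CPM per kb. The ranges of these neighbours in the order overlapped over the 14 libraries. Trim32, mutated in a human limb-girdle muscular dystrophy, ranged from 57.7 to 69.2 CPM per kb and lay above the whole range of Trim35, which ran from 45.0 to 55.4 CPM per kb. Trim35 in turn lay above Trim28, the corepressor recruited by KRAB zinc finger proteins, which ranged from 37.4 to 44.9 CPM per kb. Below Trim3, a brain-enriched ligase of the postsynaptic density that ranged from 30.1 to 37.8 CPM per kb, there was one more gap, to Trim46 at 19.1 to 24.2 CPM per kb. Trim46 organises parallel microtubules in the proximal axon. From Trim46 down to the last member, Trim71, at a mean of 0.172 CPM per kb, every member overlapped with the next in its range. The median member had 4.70 CPM per kb, against 8.32 CPM per kb over the 14624 genes at the same minimum with a transcript length.

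**Figure D1:**
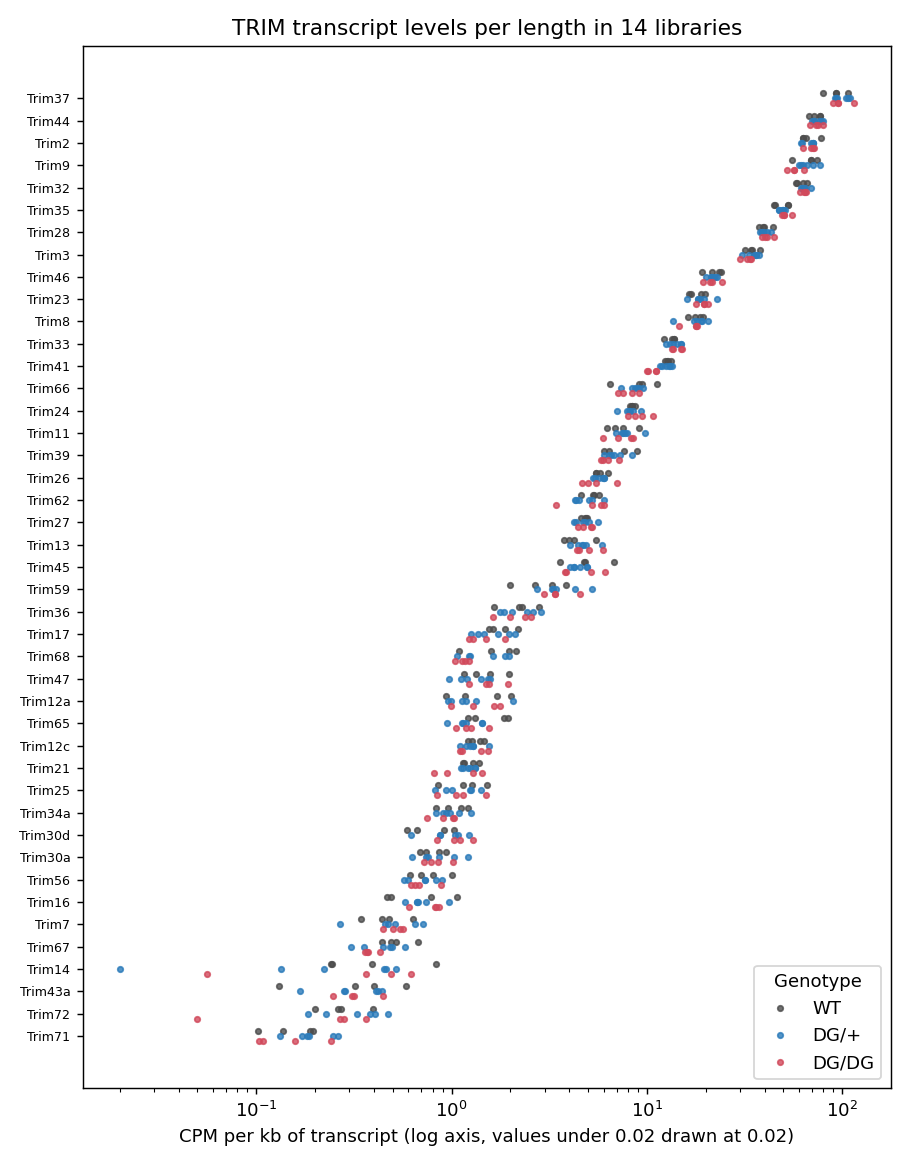
Level of each of the 43 TRIM members as CPM per kilobase of transcript on a log axis, in order of the mean, with one point for each library coloured by genotype. The 5 members with the highest means have means between 63.3 and 97.6 CPM per kb, and the 3 genotypes lie among each other for nearly all members.

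Of the abundant members, Trim37, Trim44 and Trim32 each had similar levels in the 3 genotypes. Trim9, described below, had means of 295 CPM in WT, 292 CPM in DG/+ and 253 CPM in DG/DG. Per library and on the CPM scale scaled by library, Trim37 read 523, 606, 450.3 and 523 CPM in WT and 645, 537, 502 and 538 CPM in DG/DG. In the 6 DG/+ libraries Trim37 had a lowest value of 517, a median of 558 and a highest value of 616 CPM. The 3 groups overlapped, and the log2 fold change of Trim37 between DG/DG and WT was 0.08 with a 95% interval from -0.13 to 0.29. Trim44 read 379, 429, 432 and 403 CPM in WT and 422, 385, 414 and 449 CPM in DG/DG, with 394, 416 and 445 CPM as the lowest, median and highest DG/+ values. Trim44 also overlapped between all groups, and its interval for DG/DG against WT ran from -0.12 to 0.17. Trim32 had the smallest spread of all tested members, with a standard deviation of 0.067 on the log2 scale over the 14 libraries. Its values were 210.2, 188, 201 and 184 CPM in WT, 197 to 221 CPM with a median of 204 CPM in DG/+, and 204, 194, 209 and 207 CPM in DG/DG. The largest spread among tested members was 0.341 for Trim71, the mammalian LIN-41 and a target of let-7 microRNAs, at a mean of 1.61 CPM. Trim68 and Trim59 followed with 0.329 each, at means of 3.47 and 10.1 CPM. Trim71 had between 11 and 36 counts in a library, and the part of counting error in its range was not tested.

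The comparison of DG/DG with WT asks what 2 copies of the allele do to the transcript levels of the cortex. No TRIM member passed an adjusted p of 0.05 in edgeR's quasi-likelihood test with Benjamini-Hochberg adjustment, and neither did any other of the 14565 genes (0.0% called). DESeq2 and limma-voom gave 0 called members as well. At an unadjusted p under 0.05, 4 of 41 members (9.76%) had lower levels in DG/DG and 0 had higher ones. Over all genes the same rule took 5.13%, of which 2.98% were lower, or 434 genes, and 2.15% higher. This background moved with single libraries: it was 9.98% of genes without WT replicate 1 and 9.32% without WT replicate 3, where 4 members each reached that p, and 2.35% without WT replicate 4. In the fits without WT replicate 1 or WT replicate 3 the members' share was thus near that of all genes. The 4 members were Trim41, Trim9, Trim68 and Trim67. In bulk tissue, fewer cells of a type and less RNA per cell cannot be told apart, and this holds for each value given here.

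Trim41 is a RING ligase known to promote the turnover of ZSCAN21, a zinc finger transcription factor. Its level was 45.8, 43.9, 42.3 and 43.4 CPM in the WT libraries and 38.3, 34.5, 38.2 and 34.95 CPM in the DG/DG libraries. In the 6 DG/+ libraries its lowest, median and highest values were 40.2, 43.8 and 46.0 CPM. All 4 DG/DG libraries lay below every WT and every DG/+ library, while WT and DG/+ overlapped. The means were 43.9 ± 1.48 CPM in WT (SD, n = 4), 43.3 ± 2.38 CPM in DG/+ (SD, n = 6) and 36.5 ± 2.05 CPM in DG/DG (SD, n = 4). The log2 fold change in edgeR was -0.27 between DG/DG and WT (SE 0.07, 95% interval -0.41 to -0.12, unadjusted p = 0.00157, adjusted p = 0.886). Between DG/DG and DG/+ it was -0.25 (SE 0.064, 95% interval -0.38 to -0.11, unadjusted p = 0.00140, adjusted p = 0.972 in edgeR). Between DG/+ and WT it was -0.02 with a 95% interval from -0.15 to 0.11. The gene was picked out with its result known, and after adjustment over all genes its differences did not pass the threshold. In the authors' deposited table Trim41 has a log2 difference of -0.25 for DG/DG with p = 0.04996 and of -0.01 for DG/+ with p = 0.961, both with a false discovery rate of 1. The other members named above did not reach a p of 0.05 for DG/DG in that table. Its edgeR p was 0.116 for the Trim9 transcript used here, 0.0602 for Trim68 and 0.0878 for Trim67.

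Groups that did not overlap were found for 2 of 41 members between DG/DG and WT, Trim41 and Trim67, both lower in DG/DG. Over all genes the share was 2.62%, and 1.19% were lower. Between DG/DG and DG/+ only Trim41 of the 41 tested members had separate groups, where the share over all genes was 1.21% and 0.405% for lower values. Between DG/+ and WT it was 0 of 41 members, against 0.316% of all genes.

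**Figure D2:**
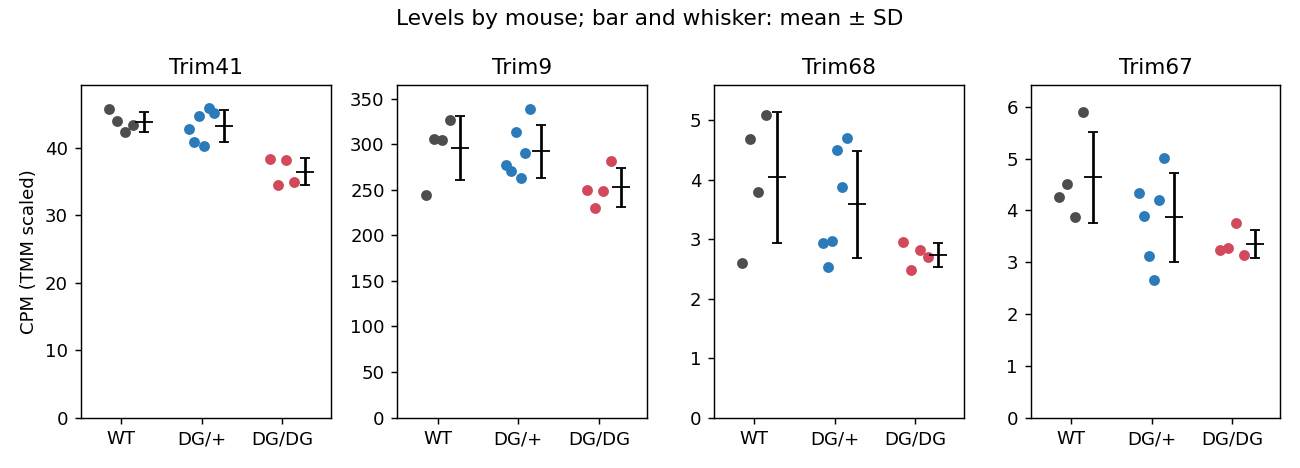
CPM of Trim41, Trim9, Trim68 and Trim67 in each mouse, with one point per library, axes from 0 and the mean ± SD of each genotype beside the points. The DG/DG points of Trim41, from 34.5 to 38.3 CPM, lie below all 10 other libraries, and those of Trim67 lie below WT only.

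Trim9 and Trim67 are close paralogs of class C-I, whose members end in a COS box, a fibronectin type 3 domain and, for these, a SPRY domain. Trim9 is enriched in brain and binds the netrin receptor DCC in growing axons. It read 244.7, 306, 304 and 326 CPM in WT and 250.2, 230.2, 248 and 282 CPM in DG/DG, with a lowest, median and highest DG/+ value of 263, 283.5 and 339 CPM. WT replicate 1 lay among the DG/DG values, and the other 3 WT libraries lay above all of them. The log2 fold change of Trim9 was -0.22 for DG/DG against WT (SE 0.1, 95% interval -0.44 to -0.01, unadjusted p = 0.0393, adjusted p = 0.886 in edgeR). Against DG/+ it was -0.21 (unadjusted p = 0.0369, adjusted p = 0.972 in edgeR). Trim9 had 3 transcripts in the table, and the other two, whose counts came to 96.1% and 57.6% of those of the transcript used, had log2 fold changes of -0.23 and -0.26 between DG/DG and WT. These transcripts share most of their exons, so they are not separate observations.

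Trim67 read 4.27, 4.51, 3.87 and 5.90 CPM in WT and 3.24, 3.28, 3.75 and 3.14 CPM in DG/DG. Its 6 DG/+ values ran from 2.66 to 5.02 CPM with a median of 4.04 CPM, across the range of both other groups. The log2 fold change between DG/DG and WT was -0.45 (95% interval -0.89 to -0.02, unadjusted p = 0.0401, adjusted p = 0.886 in edgeR). Each library held between 33 and 68 counts of Trim67, far fewer than the 2547 to 4342 counts of Trim9. The other 2 Trim symbols of class C-I, Trim36 and Trim46, differed less: Trim46 had a log2 fold change of -0.03 with an interval from -0.21 to 0.15. All 4 Trim symbols of the class had values below 0, with a median of -0.14 against 0.00 over all genes. Of these 4, 2 were the members named above. Family members under other names were not counted in the class: Mid1 had -0.66 and Mid2 had 0.17, above 0.

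Trim68, known in human cells as a ligase that acts on the androgen receptor, had the lowest log2 fold change of all members. Its WT libraries read 2.61, 4.69, 3.79 and 5.09 CPM and its DG/DG libraries 2.95, 2.48, 2.81 and 2.70 CPM. The 6 DG/+ values ran from 2.54 to 4.70 CPM with a median of 3.42 CPM. The groups overlapped, because WT replicate 1 lay within the DG/DG values, and the 3 other WT libraries lay above them. The log2 fold change was -0.55 (95% interval -1.07 to -0.04, unadjusted p = 0.0360, adjusted p = 0.886 in edgeR), with 30 to 59 counts in a library. It was the only member of 41 whose interval for DG/DG against WT was not contained within a 2-fold change either way.

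Which members reached an unadjusted p under 0.05 for DG/DG against WT depended on single libraries and on the method. Trim41 did in all 26 alternative fits. Without WT replicate 2, WT replicate 4 or DG/DG replicate 2 it was the 1 member that did, where 3.82%, 2.35% and 5.13% of all genes did. Without DG/DG replicate 1 Trim41 and Trim68 did, without DG/DG replicate 3 Trim41 and Trim67, and without DG/DG replicate 4 Trim41 and Trim9. DESeq2 took Trim41, Trim9 and Trim68, and limma-voom took Trim41 and Trim9. With only the 2 genotypes fitted in edgeR, they were Trim41, Trim68 and Trim67. An exclusion planned for transcripts of neighbouring tissues left out WT replicates 2 and 3, DG/+ replicate 2 and DG/DG replicate 1. There Trim41 and Trim66 did, beside 6.57% of all genes. Trim9 and Trim68 then had an unadjusted p of 0.261 and 0.149 in edgeR. Without the 4 libraries that held over 500 CPM of choroid plexus or pituitary markers (WT replicate 3, DG/+ replicates 1 and 5 and DG/DG replicate 1), Trim41 and Trim66 did, beside 8.43% of all genes, and Trim41 had a log2 fold change of -0.31.

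No member was higher in DG/DG than in WT at an unadjusted p under 0.05. The 3 with the smallest p in that direction were Trim30d, Trim24 and Trim33. Trim30d, one of a cluster of mouse genes known to be induced by interferon, read 1.74, 1.13, 1.97 and 1.27 CPM in WT and 2.46, 1.60, 1.95 and 2.09 CPM in DG/DG. The 2 groups overlapped, and the log2 fold change was 0.38 with an interval from -0.17 to 0.94, at 11 to 29 counts in a library. Trim24 and Trim33 are chromatin readers of the TIF1 group, with a PHD finger and a bromodomain. Trim24 read 33.3, 33.9, 34.99 and 33.9 CPM in WT and 32.4, 43.5, 35.1 and 37.9 CPM in DG/DG, where replicate 2 stood highest. Its log2 fold change was 0.13 with an interval from -0.07 to 0.33, and 0.05 without DG/DG replicate 2. Trim33, which ubiquitinates SMAD4, read 109, 122, 122.5 and 119 CPM in WT and 132.5, 135, 119 and 121 CPM in DG/DG, with overlapping groups and an interval from -0.06 to 0.26.

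Over the whole group the values lay around 0. The median log2 fold change of the 41 tested members between DG/DG and WT was -0.03, against 0.00 over all 14565 genes. Values below 0 were found for 23 of the 41 members (56.1%), against 49.9% of all genes. The extremes were the -0.55 of Trim68 and the 0.38 of Trim30d. The 95% interval lay within a 1.5-fold change either way for 30 of the 41 members.

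**Figure D3:**
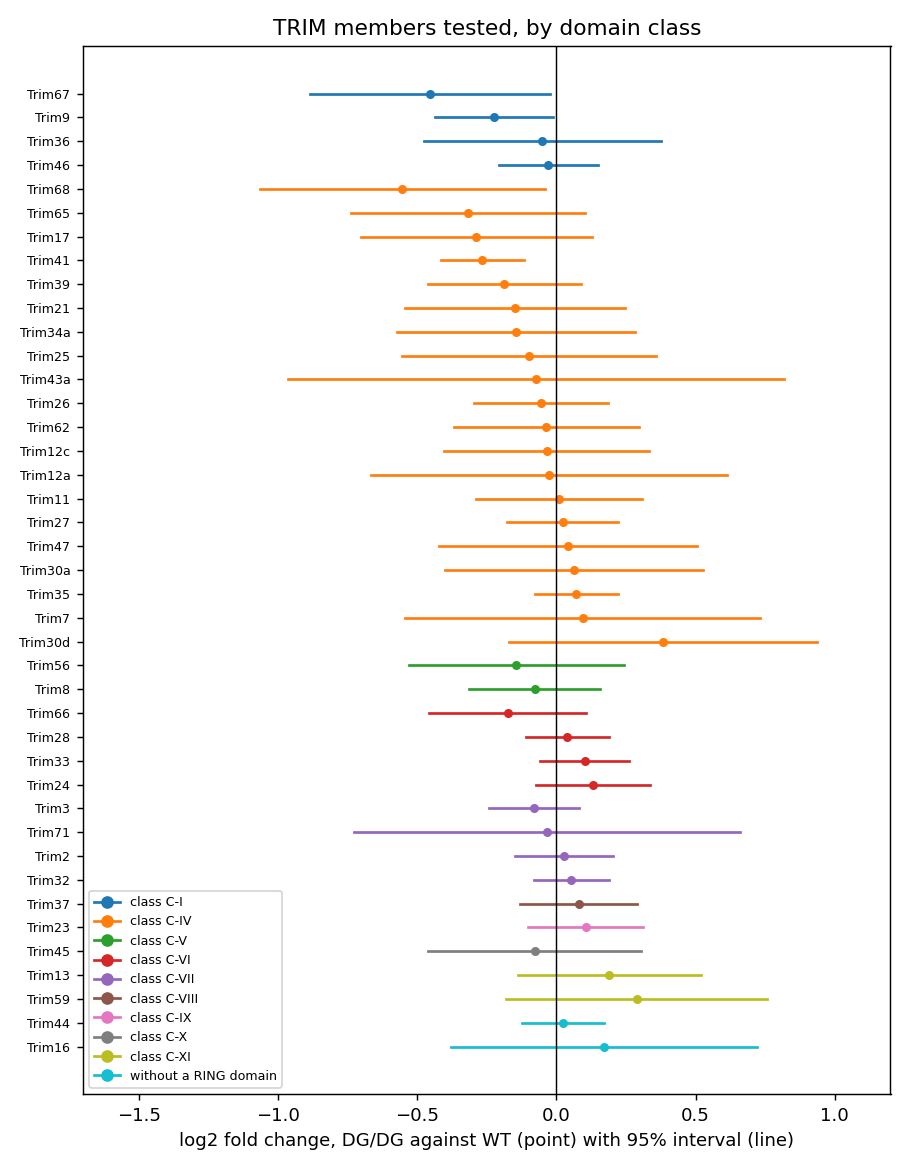
Log2 fold change of each tested TRIM member between DG/DG and WT (point) with its 95% interval from edgeR (line), grouped and coloured by domain class. The interval lies wholly below 0 for Trim41, Trim9, Trim68 and Trim67, lies above 0 for 0 members, and runs from -0.41 to -0.12 for Trim41.

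By class, the SPRY-domain class C-IV was the largest, with 20 members tested, 13 of them below 0 and a median of -0.05. It holds Trim41 and Trim68, along with antiviral ligases such as Trim21, the cytosolic antibody receptor that is known to need VCP to dispose of antibody-coated virus, and Trim25, which acts on the RNA sensor RIG-I. Trim21 had means of 3.48 ± 0.31 CPM in WT (SD, n = 4), 3.43 ± 0.249 CPM in DG/+ (SD, n = 6) and 3.13 ± 0.8 CPM in DG/DG (SD, n = 4), and an interval from -0.54 to 0.25 for DG/DG against WT. Trim25 had means of 6.69, 6.23 and 6.32 CPM in the same order and an interval from -0.55 to 0.36. The 4 members of class C-VI, the chromatin readers Trim24, Trim28, Trim33 and Trim66, had a median of 0.07, with 1 of the 4 below 0. The 4 members of class C-VII, Trim2, Trim3, Trim32 and Trim71, which end in an NHL repeat domain, had a median of 0.00. No class held a called member in any comparison.

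For the remaining tested members the interval for DG/DG against WT included 0. Trim17, which opposes Trim41 in the turnover of ZSCAN21 and promotes neuronal apoptosis, had means of 5.48 ± 0.847 CPM in WT (SD, n = 4), 4.99 ± 1.02 CPM in DG/+ (SD, n = 6) and 4.46 ± 0.876 CPM in DG/DG (SD, n = 4). Its log2 fold change between DG/DG and WT was -0.29 with an interval from -0.70 to 0.13. Trim3 had means of 104, 105 and 98.3 CPM in the same order and an interval from -0.24 to 0.08. Trim28 had means of 130.5, 129 and 134 CPM and an interval from -0.11 to 0.19, one of the narrowest among the members. Trim8, a regulator of cytokine and NF-kB signalling, had means of 64.4, 64.4 and 60.9 CPM and an interval from -0.31 to 0.16. Trim13, a ligase anchored in the endoplasmic reticulum and known from the degradation of its proteins, a pathway that runs through VCP, had means of 7.07, 7.73 and 8.02 CPM and an interval from -0.14 to 0.52. Trim23, which combines a RING with an ARF GTPase domain, had means of 76.6, 80.6 and 82.5 CPM and an interval from -0.10 to 0.31. The widest interval was that of Trim43a, from -0.96 to 0.82, at 3 to 13 counts in a library.

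Of the 17 symbols below the minimum, all had at least 1 library without a count and at most 8 counts in any library. They include Trim54, Trim55 and Trim63, the class C-II ligases of striated muscle, at mean levels of 0.215, 0.0119 and 0.176 CPM.

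**Figure D4:**
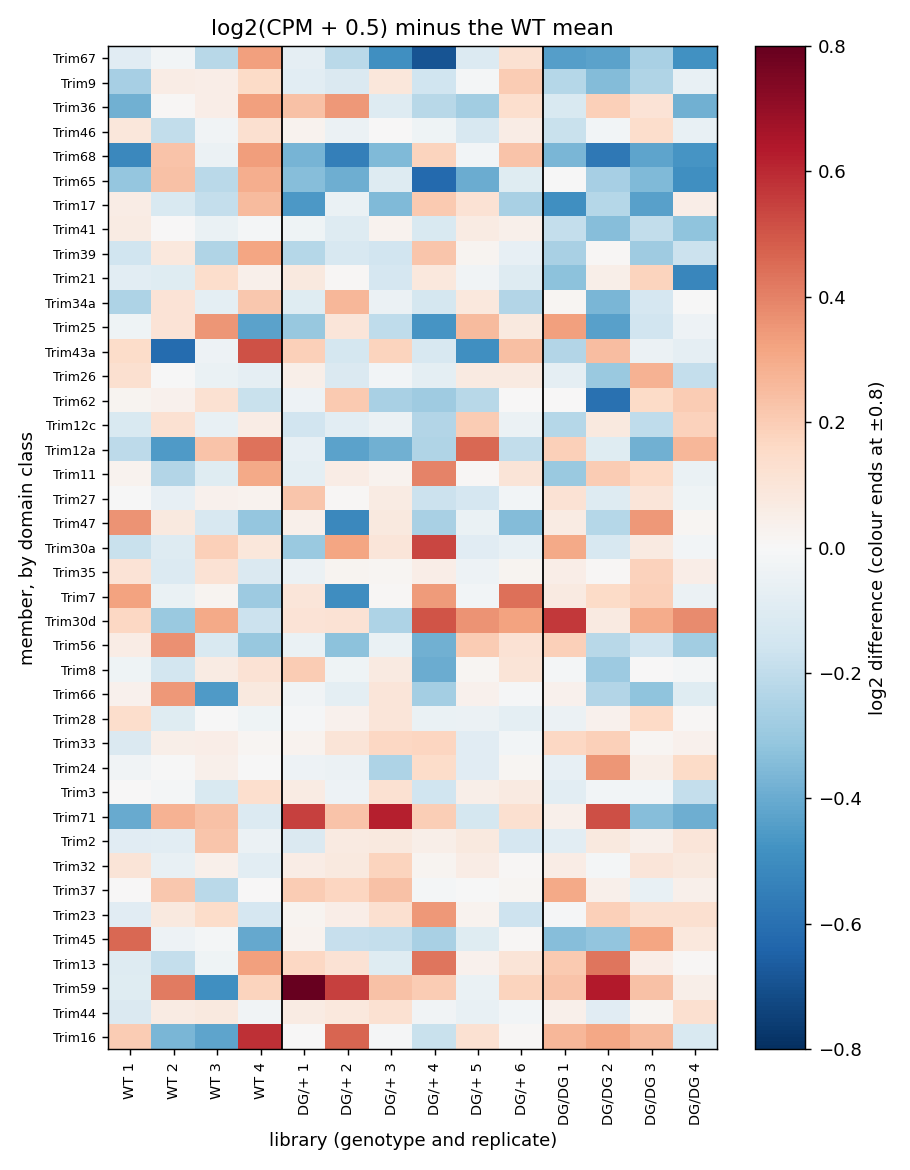
Difference of log2(CPM + 0.5) from the WT mean for each tested TRIM member (lines, by domain class) in each library (columns, by genotype), blue for lower and red for higher, with colours ending at 0.8 either way. The DG/DG values are all below 0 for Trim41, Trim9, Trim68 and Trim67, and also for Trim65 and Trim3. They are all above 0 for Trim13, Trim35, Trim59, Trim33 and Trim30d. Some lie close to 0, such as -0.06 for Trim9 in DG/DG replicate 4. Libraries of one genotype differ from each other in most other members.

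One copy of the allele was compared with none in DG/+ against WT. No member was called, and 0 of 41 reached an unadjusted p under 0.05, against 1.6% of all genes (233 of 14565) and 0.0% called after adjustment in edgeR. The median log2 fold change of members was -0.01, close to the -0.01 of all genes, and 22 of the 41 (53.7%) lay below 0, against 52.7% of all genes. All 41 intervals lay within a 2-fold change either way and 31 within a 1.5-fold change. The lowest value belonged to Trim65, a ligase of the RNA sensor MDA5, at -0.37 with an interval from -0.74 to 0.01. Trim65 read 3.71, 5.64, 4.005 and 5.90 CPM in WT, 2.90, 3.56 and 4.38 CPM as the lowest, median and highest DG/+ values, and 4.71, 3.84, 3.59 and 3.23 CPM in DG/DG. Its groups overlapped, and it reached an unadjusted p under 0.05 in 4 fits that left out 1 library each (WT replicate 1 or 3, DG/+ replicate 3 or 6). The highest value was the 0.34 of Trim59, with an interval from -0.09 to 0.77. Trim59 read 7.82, 11.4, 5.83 and 9.59 CPM in WT and 8.09, 9.87 and 15.4 CPM as the lowest, median and highest DG/+ values, and DG/DG lay within the DG/+ range at 9.92, 13.4, 9.995 and 8.72 CPM. Trim59 reached an unadjusted p under 0.05 without WT replicate 2 and with the replicate number as a block. Its log2 fold change was 0.19 without WT replicate 3, 0.22 without DG/+ replicate 1 and 0.12 without the 4 libraries with over 500 CPM of choroid plexus or pituitary markers. Without those 4 libraries Trim67 had -0.41 in place of -0.25 and Trim47 -0.38 in place of -0.21, and 0 members had an unadjusted p under 0.05. Trim47 had -0.06 without WT replicate 1, and Trim67 had -0.12 without WT replicate 4.

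The comparison of DG/DG with DG/+ shares its DG/DG libraries with the first comparison, so the values are given side by side and not as further support. No member was called (0.0% of all genes in edgeR), and 2 of 41, Trim41 and Trim9, were lower at an unadjusted p under 0.05, against 3.3% of all genes and 1.62% for lower values. The median of the members was -0.01 against 0.00 over all genes. Trim68 had -0.39 here beside -0.55 against WT, and Trim24 had 0.17 (interval -0.01 to 0.36) beside 0.13. Trim47 and Trim35 had the next smallest p after Trim24 among members above 0, with log2 fold changes of 0.26 and 0.07. Without DG/DG replicate 3 these were 0.13 and 0.03, and without DG/DG replicate 2 the value of Trim24 was 0.09. Trim47 read 3.44, 2.72, 4.29 and 3.31 CPM in DG/DG and 2.14, 2.90 and 3.48 CPM as the lowest, median and highest DG/+ values, and its groups overlapped. Trim41 alone remained at an unadjusted p under 0.05 without DG/+ replicate 3, DG/+ replicate 6 or DG/DG replicate 3, with the replicate number as a block, and without the 4 libraries with over 500 CPM of choroid plexus or pituitary markers. With the planned exclusion of 4 libraries for neighbouring tissues, Trim41 and Trim24 reached that p, beside 5.49% of all genes. Trim9 was also above that p without DG/DG replicate 1 or DG/DG replicate 2, where Trim24 and Trim71 joined Trim41. Without DG/+ replicate 4, Trim24 and Trim3 joined Trim41 and Trim9. Fitted as a change per DG allele over all 14 libraries, Trim41 had a log2 slope of -0.13 (95% interval -0.21 to -0.05, unadjusted p = 0.00330, adjusted p = 0.845 in edgeR), and the same 4 members as in DG/DG against WT had an unadjusted p under 0.05, against 5.65% of all genes and 3.23% for lower values. Without WT replicate 4 or DG/DG replicate 2 only Trim41 of the 41 did so per allele, and without WT replicate 2, DG/DG replicate 3 or DG/DG replicate 4 it was Trim41 and 1 other. Without the 4 libraries with over 500 CPM of choroid plexus or pituitary markers they were Trim41, Trim65 and Trim66. With the planned exclusion of 4 libraries they were Trim41 and Trim66, beside 7.82% of all genes.

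The share of guanine and cytosine (GC) in a transcript was set beside the values of the group, and a link between the 2 was not tested. Libraries differed in the level of GC-rich genes relative to GC-poor ones, and the cause of this was not tested. The GC content of the tested members had a median of 51.2% and ran from 37.4% to 64.1%, and that of Trim41 was 58.3%. In each library the median log2 deviation of the genes richest in GC (at least 56.2%) was set against that of the poorest (at most 44.6%). This balance was 0.20, -0.08, -0.03 and 0.15 in WT, and -0.01, -0.25, 0.03 and -0.09 in DG/DG. In DG/+ it ran from -0.32 in replicate 4 to 0.17 in replicate 5. Both Trim41 and the balance were lower in DG/DG on average. The 21 members at or above the median GC had a median log2 fold change of -0.06 between DG/DG and WT, against 0.03 for the 20 below it. With each gene's length and GC content fitted as an offset in every library, these medians were 0.02 and 0.02. The log2 fold change of Trim41 became -0.18 between DG/DG and WT (unadjusted p = 0.00561, adjusted p = 0.968 in edgeR) and also -0.18 between DG/DG and DG/+. Under the offset Trim41 and Trim68 were the 2 members at an unadjusted p under 0.05 for DG/DG against WT, and Trim9 had -0.19 with an unadjusted p of 0.0510 in edgeR.

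**Figure D5:**
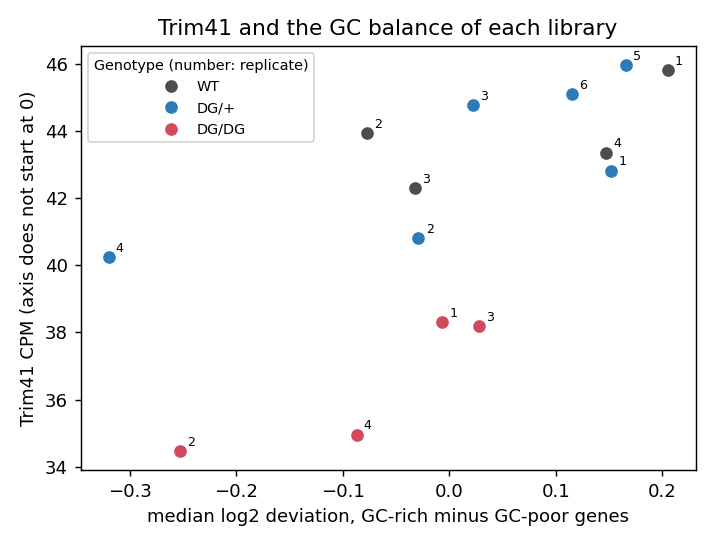
Trim41 level in CPM (vertical axis, not from 0) against the GC balance of each library (horizontal axis, median log2 deviation of the GC-rich minus the GC-poor genes), coloured by genotype and numbered by replicate. The 4 DG/DG libraries lie at 34.5 to 38.3 CPM, and DG/+ replicate 4, which has the lowest balance of -0.32, lies at 40.2 CPM.

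Trim41 lies on chromosome 11 of the mm10 build, at 48806403 to 48818199. The gene Rack1, listed in the table under its older symbol Gnb2l1, ends inside the end of Trim41 on the opposite strand in the GENCODE annotation, with an overlap of 31 bases. In the RefSeq coordinates of the counted transcripts, Rack1 ends at 48806241. This lies below 48806403, the lower bound of Trim41, so these 2 transcripts do not overlap. The gene boundaries and the strand rule used for counting are unknown. Whether the 2 genes share reads was not tested. Rack1 encodes a scaffold protein of the small ribosomal subunit. It read 188, 151, 147 and 152.5 CPM in WT and 185, 176, 183 and 175 CPM in DG/DG, and its log2 fold change was 0.17 (95% interval 0.01 to 0.34, unadjusted p = 0.0369, adjusted p = 0.886 in edgeR), opposite in sign to that of Trim41. Trim7, another SPRY-class ligase, starts 7939 bases away and had 1.18 CPM and a log2 fold change of 0.09. Irgm1, an interferon-inducible GTPase within 100 kb, had 10.8 CPM and a log2 fold change of 0.15. Snord96a, which lies within Rack1, had 1.58 CPM and a log2 fold change below 0, at -0.48 with a 95% interval from -1.17 to 0.21. The neighbours Snord95, Gm5431 and Gm12185 did not pass the count filter.

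Levels were compared with those of Trim41 for 14024 genes at a mean of 1 CPM or more. The levels most like those of Trim41 over the 14 libraries were those of Srrm3 (Pearson's r of 0.87, Spearman's rho of 0.789), Zbtb7b (0.856 and 0.802), Polr3c (0.85 and 0.824), Tomm40 (0.838 and 0.793) and BC051142 (0.819 and 0.648). The median gene had an r of -0.009. These values describe 14 libraries, and each library's depth and GC balance is common to all its genes. All 5 had a log2 fold change below 0 between DG/DG and WT, from -0.75 to -0.21, so their likeness to Trim41 includes the difference between these groups. Of the transcripts named, 3 of the 5 had a GC content above 60%, where the median over all genes tested was 50.5%.

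The members lie on 15 chromosomes, with 11 of the 43 on chromosome 7 and 9 on chromosome 11. On chromosome 7, Trim34a, Trim12a, Trim12c, Trim30a and Trim30d, follow each other with at most 55667 bases between neighbours. They belong to a cluster that has multiplied in rodents and whose members are known to respond to interferon. Trim12a and Trim12c, and Trim30a and Trim30d, are near copies, so reads that fit both may have been placed on either and their single values are uncertain. Together with Trim21 and Trim68 from the same region of the chromosome, 7 members had a median log2 fold change of -0.04 between DG/DG and WT, with a range from -0.55 to 0.38 and 5 of the 7 below 0.

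The promoters of these neighbours show how alike they are and carry the core letters of the interferon-stimulated response element. The letters searched were GAAA, any 2 bases and GAAA again, on both strands, in RefSeq promoters of GRCm38.p6 from 250 bases before to 50 bases after the start, where overlapping matches were counted one by one. A promoter was found for 33 of the 43 members, and 8 of these (24.2%) held a match. Of the 45 promoters of members 9 did, against 3.44% of all 32851 promoters in the table. The stretches of 30 bases below are written on the gene's strand with the matching letters in capitals, and are shown for the neighbouring pairs and for Trim21 and Trim26, which held 2 overlapping matches each.
Trim12a: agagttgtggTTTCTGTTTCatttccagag
Trim12c: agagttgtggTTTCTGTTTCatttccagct
Trim30a: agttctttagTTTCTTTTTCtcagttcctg
Trim30d: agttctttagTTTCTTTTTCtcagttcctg
Trim21: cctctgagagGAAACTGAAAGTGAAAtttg
Trim26: ccgcttccgaTTTCACTTTCCTTTTCtcgg
They lie on the minus strand at chr7:104315466-104315495 for Trim12a, chr7:104353359-104353388 for Trim12c, chr7:104465210-104465239 for Trim30a, chr7:104507871-104507900 for Trim30d and chr7:102565450-102565479 for Trim21, and on the plus strand at chr17:36836976-36837005 for Trim26. The stretches of Trim30a and Trim30d are the same in all letters, and their matches begin 36 and 41 bases before the start. The 8 members with a match, which also include Trim2 and Trim34a, had a median log2 fold change of -0.03 between DG/DG and WT and a range from -0.15 to 0.38, and 0 of the 8 reached an unadjusted p under 0.05 in any of the 3 pairs. The promoter of Trim41 had no match and a GC content of 64.7%.

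Genes that work with the family were read from 3 lists. Of the family members under other names, 3 of 4 were tested and 0 were called. Mid1, which guides the turnover of protein phosphatase 2A, had a log2 fold change of -0.66 between DG/DG and WT (95% interval -1.28 to -0.03, unadjusted p = 0.0402, adjusted p = 0.886 in edgeR), Mid2 had 0.17 and Pml, the organiser of nuclear bodies, -0.17. Mid1 read 4.34, 7.21, 4.78 and 4.16 CPM in WT and 4.22, 2.24, 3.04 and 3.57 CPM in DG/DG, and DG/DG replicate 1 lay within the WT values. Of 22 substrates and partners tested, 0 were called and 1 was higher at an unadjusted p under 0.05, the Rack1 named above, beside 2.15% of all genes. The median of that list was 0.04. Zscan21, the substrate of Trim41, had a log2 fold change of 0.02.

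Of 17 tested genes of innate sensing and NF-kB signalling, through which many TRIM ligases act, 0 were called, 4 lay below 0, against 49.9% of all genes, and the median was 0.05. Irf3, the transcription factor that starts the interferon response, was the 1 gene with a lower level at an unadjusted p under 0.05, near the 5.13% of all genes at that p and the 2.98% that were lower. It read 19.1, 16.2, 13.98 and 22.1 CPM in WT and 11.6, 13.8, 14.8 and 11.8 CPM in DG/DG, with a log2 fold change of -0.45 (95% interval -0.80 to -0.11, unadjusted p = 0.0137, adjusted p = 0.886 in edgeR). DG/DG replicate 3 lay above WT replicate 3, so the groups overlapped. Tmem173, which encodes the DNA-sensing adaptor STING, had 0.41 with an unadjusted p of 0.0772 in edgeR.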

How the data were processed

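RNA from the anterior cortex of 14 mice was extracted with an RNeasy kit and made into libraries by standard Illumina methods, per the labels' protocols. The submitters' processing notes name the mm10 build and edgeR without a version. An aligner, a counting tool and a strand setting were not given in the sources used here. The authors deposited one table with raw counts per transcript for each mouse (24939 transcripts), log2 values and p-values. Their log2 differences and p-values come from the authors' own comparisons with WT and were used only where the deposited table is named. The 14 columns of the authors' normalized log2 values per mouse were not used.

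For each of 19360 symbols the transcript with the largest summed count was kept. Counts were tested with edgeR 4.0.16 in R 4.3.3: filterByExpr by genotype, TMM factors, a robust quasi-likelihood fit of all 14 libraries and Benjamini-Hochberg adjustment over 14565 genes, with a threshold of 0.05. Levels are CPM with TMM-scaled library sizes. CPM is relative to the library and does not measure RNA per cell. Transcript length and GC content came from GENCODE vM21 transcripts matched by RefSeq accession, for 18893 symbols. Gene coordinates are those of the RefSeq table of the same build, found by accession for all members except Trim23, which was matched by symbol. Groups follow the genotype and mouse number in the labels, and each library is a separate mouse. Replicate numbers are those of the sample titles, and by the mouse number label the table's columns WT3, WT4 and WT2 are WT replicates 2, 3 and 4. Libraries had Spearman correlations of 0.976 to 0.995 with each other, so all differed.

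The members, gene lists and comparisons were chosen with earlier results of these data known. Members picked for fuller description were Trim41, the 3 with the smallest p in each direction for each pair of genotypes and the 6 with the highest level per length. Where given, their values are by library for WT and DG/DG and the lowest, median and highest for DG/+. For some of them, such as Trim2, Trim35 and Trim71, only part of these values is given. One gene of the list of substrates and partners is not reported here by name. No test over the members as a set was made. Alternatives were other size factors, filters on low counts, DESeq2 1.42.0, limma-voom 3.58.1, only the 2 genotypes compared, every transcript, a length and GC offset, the replicate number as a block, and leaving out libraries.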

Additional observations from a re-analysis of the deposited data

Results flagged for a closer look

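Trim2 in WT replicate 3 read 562.5 CPM, against 453.4 to 467.6 CPM in the other 3 WT libraries, a gap larger than the spread of the others allows by Dixon's criterion. Among the 16 members picked for fuller description, 48 groups were examined in this way and 1 stood out, where chance marks about 1 group in 20. WT replicate 3 also had the highest sum of choroid plexus markers, 1308 CPM, and whether that bears on its Trim2 level was not tested.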

How the results depend on the processing

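Over 26 alternatives for each pair of genotypes and 25 for the change per allele, 0 members were called in every one. Trim41 kept its sign for DG/DG against WT (-0.31 to -0.18), for DG/DG against DG/+ (-0.28 to -0.18) and per allele (-0.17 to -0.09), with adjusted p from 0.343 upwards. For DG/+ against WT its value changed sign when single libraries were left out (-0.036 to 0.008), being 0.004 without WT replicate 1, 0.002 without DG/+ replicate 2 and 0.008 without DG/+ replicate 4. The cause was not tested. The median of the tested members became 0.019 for DG/DG against WT and 0.009 per allele with the length and GC offset. It became -0.006 for DG/DG against WT without the 4 libraries with over 500 CPM of choroid plexus or pituitary markers, an alternative chosen after seeing the data. With 1 library left out, the medians ran from -0.049 to 0.012 for DG/DG against WT, from -0.018 to 0.011 for DG/+ against WT, from -0.027 to 0.003 for DG/DG against DG/+ and from -0.027 to 0.004 per allele.

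The replicate numbers 1 to 4 are shared between groups, while 5 and 6 occur only in DG/+. Deviations of same-numbered libraries correlated from -0.215 to 0.292. Libraries of different numbers were not compared in this way, so these values cannot tell whether the numbers pair the mice. With the replicate number as a block 0 members were called and Trim41 had -0.27, -0.06 and -0.21 for DG/DG against WT, DG/+ against WT and DG/DG against DG/+. The count of all genes at an unadjusted p under 0.05 was then 618 for DG/DG against WT, and 747 without the block. It was 652 for DG/+ against WT (233 without) and 350 for DG/DG against DG/+ (481 without). These shifts mix the blocking with the loss of DG/+ replicates 5 and 6. For DG/+ against WT with no block, the count was 437 without DG/+ replicate 5 and 329 without DG/+ replicate 6.

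Depth limits the low members most. The median member had a 95% interval of 0.33 on the log2 scale either side of its fold change between DG/DG and WT. With that width, an estimate nearer to 0 has an interval that includes 0. A call after adjustment asks for more: Trim68 at -0.55 had an adjusted p of 0.886 in edgeR.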
